A study of Mus musculus with 12 samples.

Results

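B lymphocytes are followed here in the mouse cochlea through 9 genes of their lineage, of which 8 could be measured. The genes were given as a list, 3 of B cell precursors (Vpreb1, Igll1 and Rag1) and 6 that are kept in later B cells (Vpreb3, Cd79a, Cd79b, Pax5, Ebf1 and Fcrla), and each was found by its gene symbol in the platform's probe annotation. No probe in that annotation carried the name Cd79a, so it is not analysed here. The other 8 genes had 14 probes, out of 45281 probes and 19057 named genes in all. A filter on mean level kept 12 of the 14 probes and 7 of the 8 genes, and left out the probe of Pax5 and the dimmest of the 3 probes of Ebf1.

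B cells arise in the bone marrow from progenitors that cut and rejoin their immunoglobulin genes with the RAG recombinase, of which Rag1 encodes a subunit. A cell that has made a heavy chain pairs it with a surrogate light chain, encoded by Vpreb1 and Igll1, and places it on its surface as the pre-B cell receptor. CD79A and CD79B carry the signal of this receptor and of the later B cell receptor, and the transcription factors EBF1 and PAX5 commit cells to the lineage. The cochlea is enclosed in bone, the otic capsule.

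The samples were cochleae of C57BL6j mice, an inbred strain that loses hearing early in life, aged 4, 15 or 45 weeks and freed of the vestibular organs. No treatment or genetic change is named in the labels, and all mice were kept under standard laboratory conditions. Total RNA from pools of 5 (cochleae or mice, which the sources used here do not settle), labelled a and b at each age, was hybridised to Illumina mouse BeadChips, 2 arrays for each pool, which gave 12 arrays of 6 pools. The pool is the replicate (n = 2 an age), and the number of pools limits every difference below. The question asked was which transcripts differ between the ages.

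Levels are log2 values as normalized by the authors, and each array ranged from 5.10 to 15.00 around a median of 5.89. They say nothing of how one gene's transcripts compare with another's, since probes differ in brightness. The cochlear marker Otos, a gene of the spiral ligament fibrocytes, lay between 12.52 and 13.26 in all pools. Mpo, a gene of neutrophil precursors in the marrow, lay between 13.27 and 14.09, near the top of the scale in every pool. Of the further precursor markers, Dntt lay at 5.78 to 6.12 and Rag2 at 5.49 to 5.64, near the median of the arrays, and so did the mature markers Ms4a1 (6.06 to 6.42) and Cr2 (5.46 to 5.72). Other markers of both lists lay higher, such as Il7r at 7.26 to 7.73 among precursor genes and Cd22 at 6.87 to 7.32, Blk at 7.04 to 8.04 and Cd72 at 8.39 to 9.37 among mature ones. The pools of an age were not alike in sex-linked transcripts. Xist, the RNA that coats the silenced X chromosome in females, reached 8.56 in 4-week pool b and 7.60 in 45-week pool b, while the other 4 pools had 5.85 to 5.95. Eif2s3y, a gene of the Y chromosome, had levels of 5.53 and 5.65 in the same 2 pools, against 9.54 to 9.81 elsewhere. The sex of the mice is not given in the labels.

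RefSeq windows of 250 bases before to 50 after a gene's start (build GRCm38.p6) were held for 8 of the 9 genes, all but Cd79b. Those of Vpreb1, Igll1, Rag1 and Fcrla are shown because these 4 genes varied together across the pools, as the values below show, and carry the motif marked here. Vpreb3 varied with them, and its window does not hold that motif. Capitals mark CAGGTG or its reverse complement CACCTG, the E-box form that E2A proteins bind in B cell precursors. The starts of Vpreb1 and Igll1 lie 5270 bases apart on the same strand of chromosome 16.
Vpreb1, chr16:16869206-16869505, minus strand: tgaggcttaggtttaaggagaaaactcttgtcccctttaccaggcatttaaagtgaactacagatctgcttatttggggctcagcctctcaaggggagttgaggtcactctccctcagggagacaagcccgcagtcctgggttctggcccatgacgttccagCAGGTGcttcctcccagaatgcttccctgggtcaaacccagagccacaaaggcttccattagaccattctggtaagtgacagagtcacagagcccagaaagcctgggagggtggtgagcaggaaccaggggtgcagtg
Igll1, chr16:16863936-16864235, minus strand: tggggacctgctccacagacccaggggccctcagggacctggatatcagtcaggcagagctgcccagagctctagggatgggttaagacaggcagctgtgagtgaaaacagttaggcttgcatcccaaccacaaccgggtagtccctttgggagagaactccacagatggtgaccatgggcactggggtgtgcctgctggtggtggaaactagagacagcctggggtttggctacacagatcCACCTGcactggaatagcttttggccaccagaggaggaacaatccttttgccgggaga
Rag1, chr2:101649483-101649782, minus strand: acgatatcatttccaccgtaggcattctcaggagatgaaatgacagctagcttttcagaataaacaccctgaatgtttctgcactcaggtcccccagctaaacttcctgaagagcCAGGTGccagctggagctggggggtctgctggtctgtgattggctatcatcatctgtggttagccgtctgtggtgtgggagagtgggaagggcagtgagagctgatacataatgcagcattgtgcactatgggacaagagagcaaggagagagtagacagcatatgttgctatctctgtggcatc
Fcrla, chr1:170927534-170927833, minus strand: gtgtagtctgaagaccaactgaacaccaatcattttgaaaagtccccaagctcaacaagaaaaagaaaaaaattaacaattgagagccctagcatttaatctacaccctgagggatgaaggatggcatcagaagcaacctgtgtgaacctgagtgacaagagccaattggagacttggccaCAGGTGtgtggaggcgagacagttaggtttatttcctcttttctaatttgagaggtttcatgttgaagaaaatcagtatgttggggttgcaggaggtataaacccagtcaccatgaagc

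Each of these 4 windows held the motif once, at position -88 from the gene's start in Vpreb1, -8 in Igll1, -135 in Rag1 and -69 in Fcrla, as did the window of Cd79a. On either strand it stood in 5 of the 9 windows of these genes, Ebf1 having 2 windows, and in 20.2% of all 32851 windows of that length. The other E-box form searched, CAGCTG, which reads the same on both strands, stood in 2 of the 9 windows and in 16.3% of all. In Rag1 the CAGCTG begins just after the marked CAGGTG without overlapping it. A form of the EBF1 motif, CCCNNGGG, stood in 1 of the 9 windows, that of Igll1, and in 13.7% of all. The motifs were chosen with the sequences in view, and a match describes letters only.

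At 4 and at 45 weeks the 2 pools of an age differed more in the precursor genes than the means of any 2 ages did. Single pools of different ages lay as far apart, with 15-week pool b minus 4-week pool b at 1.42 for Vpreb1, 1.34 for Igll1 and 1.29 for Rag1. Pool b at 4 weeks and pool b at 45 weeks were the lowest. Vpreb1, a part of the surrogate light chain, read 7.998 and 8.29 on the arrays of pool b and 9.29 and 9.02 on those of pool a at 4 weeks, 9.61 and 9.53 in 15-week pool b and 9.05 and 8.99 in 15-week pool a, and 8.17 and 8.24 in 45-week pool b and 9.44 and 9.44 in 45-week pool a. Both low pools thus stood apart from all other arrays, and no 2 arrays of 1 pool differed by more than 0.29.

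Igll1 encodes the other part of the surrogate light chain. Its arrays read 8.71 and 8.65 in 4-week pool b and 9.61 and 9.71 in 4-week pool a, 10.08 and 9.95 in 15-week pool b and 9.71 and 9.40 in 15-week pool a, and 9.16 and 9.32 in 45-week pool b and 10.07 and 9.97 in 45-week pool a. The same pools were low, pool b at 4 weeks the lower of them. The annotation gives no accession for this probe.

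Rag1 was dimmer and its arrays differed more, by up to 0.60 in a pool. They read 6.47 and 6.52 in 4-week pool b and 7.60 and 7.51 in 4-week pool a, 8.07 and 7.51 in 15-week pool b and 7.11 and 7.50 in 15-week pool a, and 6.51 and 6.76 in 45-week pool b and 7.39 and 7.99 in 45-week pool a. The groups of arrays from the low pools still did not overlap with the others. The probe of Vpreb2, a close copy of Vpreb1, stayed between 5.40 and 5.62 in all pools. Whether the Vpreb1 probe also binds Vpreb2 transcripts was not tested.

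**Figure D1:**
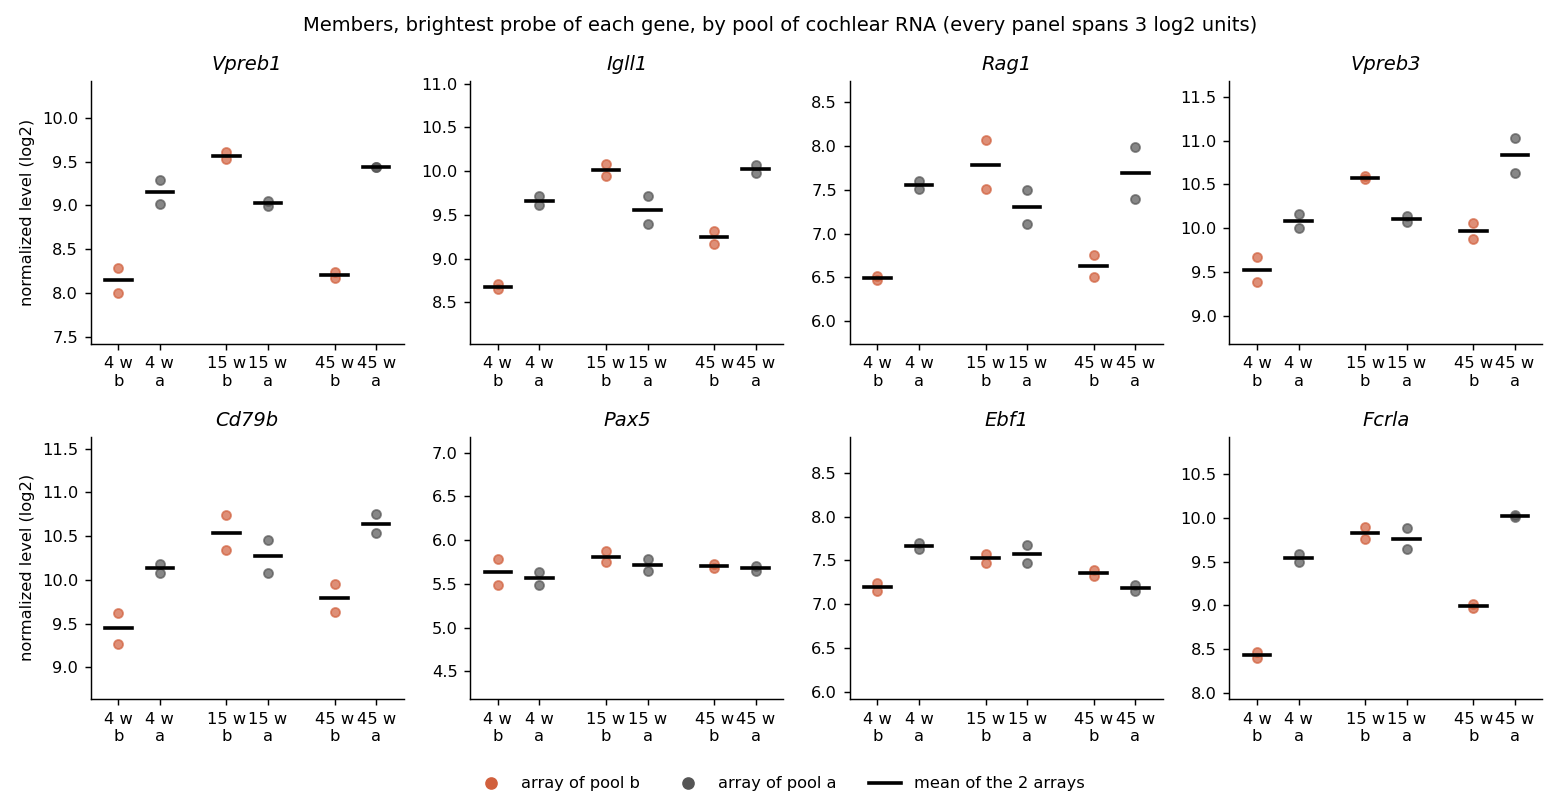
Normalized level (log2, vertical axis) of the brightest probe of each of the 8 measured genes in the 6 pools, ordered by age, with points for the 2 arrays of a pool and bars for their mean. Pool b at 4 weeks and pool b at 45 weeks lie low for Vpreb1, Igll1, Rag1, Vpreb3, Cd79b and Fcrla, while Pax5 stays between 5.56 and 5.81.

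Among the genes of later B cells, Vpreb3, Cd79b and Fcrla followed the same pools. Vpreb3 encodes a protein that binds immunoglobulin chains inside B cell precursors and is kept in part in later stages. It lay at 9.52 in 4-week pool b and 10.08 in 4-week pool a, 10.58 and 10.10 in 15-week pools b and a, and 9.97 and 10.83 in 45-week pools b and a. Pool b minus pool a was -0.55 at 4 weeks and -0.86 at 45 weeks, with the opposite sign at 15 weeks (0.47).

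Cd79b, a signalling chain of the B cell receptor, had 2 probes, which agreed in sign at 4 and 45 weeks and not at 15 weeks. Pool b minus pool a at 4, 15 and 45 weeks was -0.68, 0.27 and -0.85 on the brighter and -0.74, -0.22 and -0.53 on the dimmer. The brighter lay at 9.45 in 4-week pool b and 10.13 in 4-week pool a, 10.54 and 10.27 in 15-week pools b and a, and 9.79 and 10.64 in 45-week pools b and a. On the dimmer probe the arrays of 15-week pool b differed by more than its 2 pools did at any age.

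Fcrla encodes an Fc receptor-like protein held inside B cells. Its brightest probe lay at 8.43 in 4-week pool b and 9.54 in 4-week pool a, 9.83 and 9.76 in 15-week pools b and a, and 8.99 and 10.02 in 45-week pools b and a. The next 2 probes were alike, at -0.88 and -0.86 for pool b minus pool a at 4 weeks against -1.11 for the brightest, while the dimmest, at a mean level of 6.61, gave -0.43.

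The transcription factor genes Pax5 and Ebf1 showed less of it. Pax5 lay between 5.56 and 5.81 in all pools, near the median of the arrays and below the filter. Ebf1, which is also active in cells of the marrow stroma, lay at 7.19 in 4-week pool b and 7.66 in 4-week pool a, 7.52 and 7.57 in 15-week pools b and a, and 7.35 and 7.18 in 45-week pools b and a on its brightest probe. Its probes disagreed: on the second, at a mean level of 6.38, both low pools lay below the other 4, as for Vpreb1, and the third, left out by the filter, had a mean level of 5.51.

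Over the 12 probes of these genes that were tested, 11 had pool b at 4 weeks and pool b at 45 weeks both below the other 4 pools, which held for 8.85% of all probes tested. With a gap of at least 0.5 to pool a at both ages, 9 of the 12 and 0.411% of all probes remained. By gene, on the brightest probe, 6 of 7 met both conditions, all but Ebf1. These 2 pools were set side by side after their levels were seen, and the probes of a gene are not independent. The same 2 pools were those with high Xist and low Eif2s3y. The letter alone does not mark them, since 15-week pool b had an Xist level of 5.95 and the highest Vpreb1 level (9.57). Sex and any other difference of these 2 pools from the rest cannot be told apart, and in RNA of whole tissue neither can fewer B cells and less transcript in each.

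The gap between the pools of an age was wider in the mean of the precursor genes than in that of the later genes, and the shift of one against the other between ages depended on single pools. Pool b minus pool a was -1.02 at 4 weeks, 0.50 at 15 weeks and -1.02 at 45 weeks for the mean of Vpreb1, Igll1 and Rag1. The mean of all 5 later genes gave -0.55, 0.17 and -0.51, and that of Vpreb3, Cd79b and Fcrla alone, a choice made after their values were seen, -0.78, 0.27 and -0.91. The mean of 5 includes Pax5, which was below the filter, and Ebf1, which showed less of the pattern. Single genes did not all follow the means. At 4, 15 and 45 weeks Fcrla gave -1.11, 0.06 and -1.03, against -0.98, 0.46 and -0.78 for Igll1. Between ages, the precursor mean minus the mean of the 5 later genes shifted by 0.15 (15 minus 4 weeks), -0.18 (45 minus 15) and -0.04 (45 minus 4), against a spread between pools of an age of 0.31 (SD, pooled over the ages). These shifts varied with 1 pool or array: leaving out 1 pool, they ranged from -0.09 (without 4-week pool b) to 0.38 (without 4-week pool a) for 15 minus 4 weeks, from -0.44 (without 45-week pool a) to 0.0730 (without 45-week pool b) for 45 minus 15, and from -0.29 (without 45-week pool a) to 0.22 (without 45-week pool b) for 45 minus 4. The first arrays alone gave -0.33 for 45 minus 15 weeks. With medians in place of means the shift was -0.16 for 15 minus 4 weeks and -0.34 for 45 minus 4.

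Against Vpreb3, Cd79b and Fcrla alone, the precursor genes were lowest in both 45-week pools. Centred on the mean of the 6 pools, this difference was -0.01 in 4-week pool b and 0.22 in 4-week pool a, 0.16 and -0.07 in 15-week pools b and a, and -0.21 and -0.10 in 45-week pools b and a. The shift was -0.26 for 45 minus 4 weeks and -0.20 for 45 minus 15 weeks, against a pooled SD between pools of 0.14. With 2 pools an age and genes picked after the fact it has no test here.

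**Figure D2:**
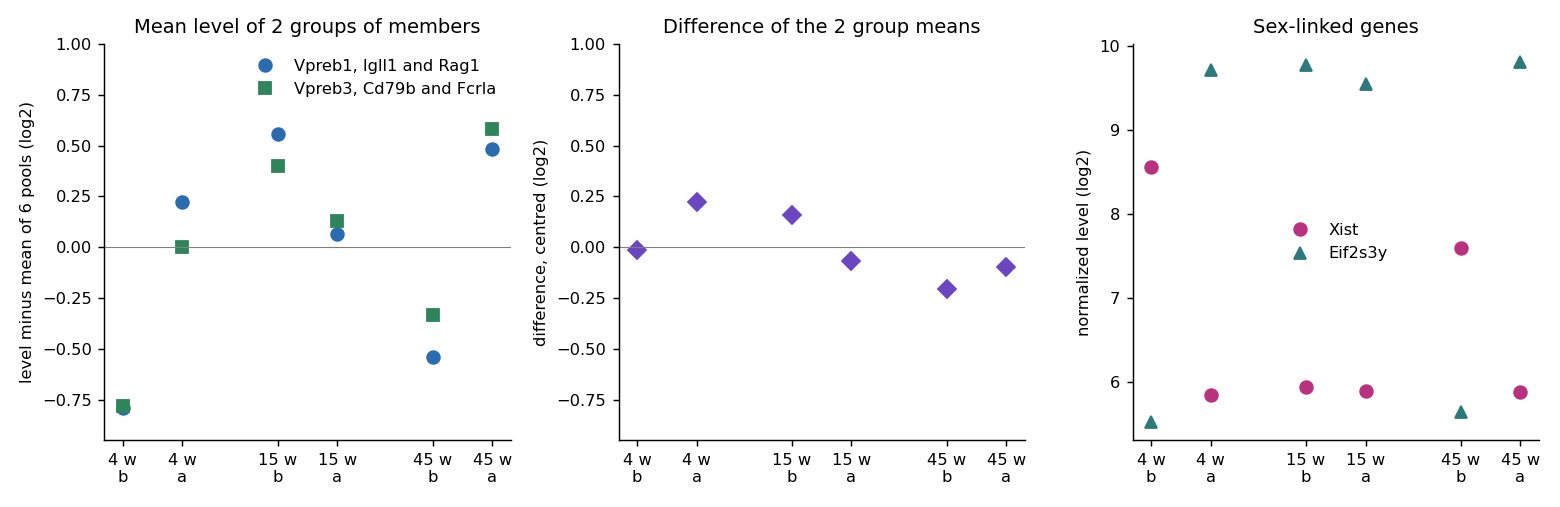
Left, mean level of Vpreb1, Igll1 and Rag1 and of Vpreb3, Cd79b and Fcrla in each pool, centred on the mean of the 6 pools (log2). Middle, the difference of the 2 means, centred, lowest in the 45-week pools at -0.21 and -0.10; right, levels of Xist and Eif2s3y, with Xist at 8.56 and 7.60 in pool b at 4 and at 45 weeks.

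Between 4 and 15 weeks all 8 genes had positive differences, and none passed the test. The difference of 15 minus 4 weeks was 0.65 (SE 0.47) for Vpreb1, 0.62 (SE 0.38) for Igll1, 0.52 (SE 0.44) for Rag1, 0.54 (SE 0.32) for Vpreb3, 0.62 (SE 0.32) for Cd79b, 0.81 (SE 0.42) for Fcrla, 0.12 (SE 0.17) for Ebf1 and, in the fit without a filter, 0.16 (SE 0.08) for Pax5. Their median was 0.58, against a median of 0.00 over all probes tested, 49.3% of which had positive differences. By limma with Benjamini-Hochberg adjustment 0 of the 12 probes were called (adjusted p = 1.00 for each), as were 0% of all probes, and 0 of the 12 and 1.33% of all probes had an unadjusted p under 0.05. In 7 of the 12, those of Vpreb3, Cd79b and Fcrla, both 15-week pools lay above both 4-week pools, as in 12.8% of all probes, and so they did for Pax5, below the filter. For Vpreb3 the nearest pools were 15-week pool a at 10.10 and 4-week pool a at 10.08. For the dimmest Fcrla probe they were 15-week pool b at 6.67 and 4-week pool a at 6.65. Both margins were smaller than the gaps between the arrays of these pools.

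These differences rest in large part on pool b at 4 weeks. Pool a at 4 weeks lay within the range of the 15-week pools for Vpreb1, Igll1 and Rag1, and 0.26, 0.27 and 0.25 below their mean for Vpreb3, Cd79b and Fcrla. Leaving out both pools of high Xist keeps only pool a at 4 weeks, the higher for these genes, so the differences had to fall. In that setting, added with the results in view, 15 minus 4 weeks was 0.14 for Vpreb1, 0.13 for Igll1, -0.01 for Rag1 and 0.26, 0.27 and 0.25 for Vpreb3, Cd79b and Fcrla. With the Xist level as a covariate it was 0.05, 0.12 and -0.05 for the precursor genes and 0.17, 0.21 and 0.22 for the others, none of them called. Xist was high only in the low pools, so the covariate follows those pools and these differences had to shrink as well. This fit is no separate check.

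Between 15 and 45 weeks 7 of the 8 genes had negative differences. Over all probes tested the median was -0.0030, and 49.4% had positive differences. Neither 15-week pool had high Xist, while pool b did at 4 and at 45 weeks. Age and this difference between pools are thus partly confounded in both comparisons with 15 weeks. The difference of 45 minus 15 weeks was -0.47 (SE 0.47) for Vpreb1, -0.15 (SE 0.38) for Igll1, -0.39 (SE 0.44) for Rag1, 0.06 (SE 0.32) for Vpreb3, -0.19 (SE 0.32) for Cd79b, -0.29 (SE 0.42) for Fcrla and -0.28 (SE 0.17) for Ebf1, and -0.07 (SE 0.08) for Pax5 without a filter, with a median of -0.23. None was called by limma (adjusted p = 0.679 to 0.983), nor was any of all probes (0%), and 0 of the 12 probes against 8.15% of all had an unadjusted p under 0.05. In 0 of the 12 did both 45-week pools lie above both 15-week pools, against 19.8% of all probes. In 2 of the 12, both of Ebf1, the 45-week pools lay below both 15-week pools, as in 19.9% of all probes, and so they did for Pax5, which was below the filter. Without the pools of high Xist the sign turned for 5 genes, to 0.14 for Vpreb1, 0.24 for Igll1, 0.14 for Rag1, 0.24 for Cd79b and 0.22 for Fcrla, beside 0.49 for Vpreb3 and -0.36 for Ebf1, which did not turn. This setting leaves only pool a at 45 weeks. The pool left out there was the lower for each of these genes but Ebf1, so the differences of the others had to rise. Pool a at 45 weeks lay above both 15-week pools for Igll1, Vpreb3, Cd79b and Fcrla.

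From 4 to 45 weeks the same-lettered pools gave positive differences in all genes tested but Ebf1. In pools b and a, 45 minus 4 weeks was 0.06 and 0.29 for Vpreb1, 0.56 and 0.36 for Igll1, 0.14 and 0.14 for Rag1, 0.44 and 0.75 for Vpreb3, 0.35 and 0.51 for Cd79b, and 0.56 and 0.48 for Fcrla. Ebf1 differed in sign, at 0.16 and -0.48. In pools b the differences of Vpreb1 and Rag1 were smaller than the largest gaps between arrays of a pool (0.29 and 0.60), and Xist was high in both but not equal, at 7.60 at 45 weeks and 8.56 at 4 weeks. Both letters were thus higher at 45 weeks for 6 of the 7 genes tested, and for 30.2% of all probes. The check given at the end does not settle whether the letters pair the pools, and these 6 genes varied together. The 6 are thus not separate observations. The fitted difference was 0.60 (SE 0.32) for Vpreb3, 0.52 (SE 0.42) for Fcrla, 0.46 (SE 0.38) for Igll1, 0.43 (SE 0.32) for Cd79b, 0.18 (SE 0.47) for Vpreb1, 0.14 (SE 0.44) for Rag1 and -0.16 (SE 0.17) for Ebf1, and 0.09 (SE 0.08) for Pax5 without a filter, with a median of 0.30 over the 8 genes. Without 45-week pool a it was 0.17 for Vpreb3, 0.0037 for Fcrla, 0.0719 for Igll1, 0.0042 for Cd79b, -0.44 for Vpreb1 and -0.39 for Rag1. By limma 0 of the 12 probes were called (adjusted p = 0.460 to 0.920), and 0% of all; 0 of the 12 and 13.9% of all had an unadjusted p under 0.05. In 0 of the 12 did both 45-week pools lie above both 4-week pools, against 22.5% of all probes, while those of Pax5, below the filter, did. With the letter as a replicate block 0 of all probes were called. Over all probes tested the median of 45 minus 4 weeks was -0.0036, and 49.3% had positive differences.

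Other B lineage genes followed the low pools in part. Of 34 tested genes of B cell receptor signalling and later B cells, 14 had pool b at 4 weeks and pool b at 45 weeks below the other 4 pools, as did 3 of 11 further precursor genes (Dntt, Il7r and Bst1), beside the 8.85% of all probes. None of these 3 had a gap of at least 0.5 at both ages. Pool b minus pool a at 4 and 45 weeks was -0.34 and -0.05 for Dntt, -0.29 and -0.20 for Il7r, and -0.21 and -0.52 for Bst1. Spib, a transcription factor gene of B cells, had a pool b minus pool a difference of -0.69 at 4 weeks, 0.60 at 15 weeks and -0.68 at 45 weeks. Tnfrsf13c, which encodes the receptor for the survival factor BAFF, gave -0.63, 0.32 and -0.68 at 4, 15 and 45 weeks. The 3 genes named after their values were seen, Pou2af1, Cd72 and Blk, were low in the same pools, at 7.47, 8.39 and 7.04 in pool b at 4 weeks against 8.68, 9.12 and 7.64 in pool a. Other B cell markers did not have this order, among them Ms4a1, Cd22, Cd37 and Bank1, also picked after their values were seen, and Fcer2a. Their levels were 6.23, 7.15, 7.48, 6.42 and 6.59 in 4-week pool b, against 6.06, 7.06, 7.06, 6.22 and 6.47 in 4-week pool a. At 45 weeks most of them were lower in pool b. Pool b minus pool a was then -0.08 for Ms4a1, -0.34 for Cd22, -0.28 for Cd37, -0.24 for Bank1 and 0.02 for Fcer2a. In all, 21 of the 34 genes were lower in pool b than in pool a at 4 weeks and 28 at 45 weeks, beside 50.8% and 50.9% of all probes. Mzb1, which encodes a chaperone of antibody-making cells, had a pool b minus pool a difference of -1.10 at 45 weeks, while the immunoglobulin genes had no probe under the names searched.

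Between ages none of these genes passed limma's test. Of the 34, 27 had positive differences for 15 minus 4 weeks (median 0.07) and 10 for 45 minus 15 weeks (median -0.14). At an unadjusted p under 0.05 none was found for 15 against 4 weeks, and for 45 against 15 weeks 2 of 34 were lower, Syk, which encodes a kinase below the receptor, at -0.30 and the chemokine receptor gene Cxcr5 at -0.40, beside 8.15% of all probes in either direction. For 45 against 4 weeks 1 was higher and 5 lower, beside 13.9% of all probes. Among the further precursor genes Cd93, also a gene of endothelium, was lower at 45 than at 15 weeks by this measure, at -0.68 (limma adjusted p = 0.606), the interleukin 7 receptor gene Il7r gave -0.32 and Kit -0.24. The lowest pool for Cd93 was pool a at 45 weeks (8.49), in which Vpreb1 and Igll1 were high.

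**Figure D3:**
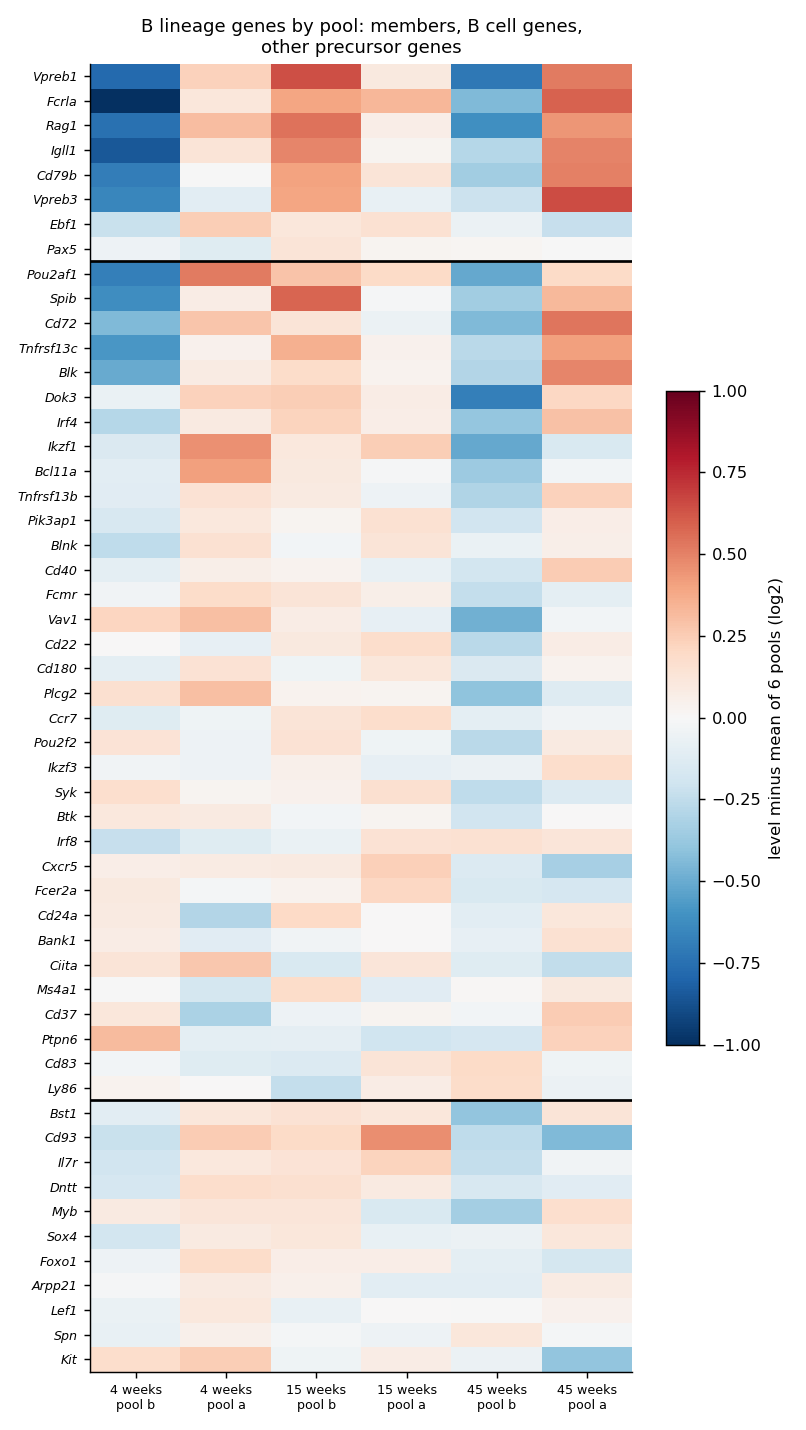
Level of each B lineage gene in each pool minus its mean over the 6 pools (log2, colour from -1 to 1), for the 8 measured genes (top), the 34 tested B cell genes (middle) and 11 further precursor genes (bottom). The columns of pool b at 4 weeks and pool b at 45 weeks are blue for Vpreb1, Fcrla, Rag1, Igll1, Cd79b and Vpreb3 and for part of the genes below them.

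Over all probes tested, pool b minus pool a had a median of -0.0038 at 4 weeks, 0.0081 at 15 weeks and -0.0054 at 45 weeks. Pool b was the lower in 50.8%, 48.5% and 50.9% of them. Neutrophil granule genes had a median of 0.21 for pool b minus pool a at 4 weeks, -0.32 at 15 weeks and 0.07 at 45 weeks, and 0 of 17 had both low pools below the other 4. The same count was 0 of 11 for T cell genes, 0 of 16 for macrophage and dendritic cell genes, 0 of 13 for osteoblast genes and 0 of 16 for cochlear genes, 4 of 16 for erythroid genes, 2 of 17 for proliferation genes and 2 of 5 for plasma cell genes (Mzb1 and Xbp1). Over all probes this order held in 8.85%, and in lists this short a count of 0 lies near that share. Osteoblast genes had medians of -0.44, 1.04 and -0.0034 for pool b minus pool a at 4, 15 and 45 weeks, with 12 of 13 lower in pool b at 4 weeks and 1 of 13 at 15 weeks. Proliferation genes had medians of -0.04, 0.10 and -0.40, with 17 of 17 lower in pool b at 45 weeks, and erythroid genes -0.05, 0.27 and -0.25. The T cell list, given because thymocytes use Rag1 as well, had medians of 0.15, -0.17 and 0.05. Skeletal muscle genes were higher in pool b at every age, with medians of 0.67, 1.55 and 1.26 and 0 of 14 genes lower at any age. The precursor genes were lower in pool b at 4 and 45 weeks and higher at 15 weeks. The part of muscle, bone or dividing cells in the levels of the B cell genes was not tested.

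**Figure D4:**
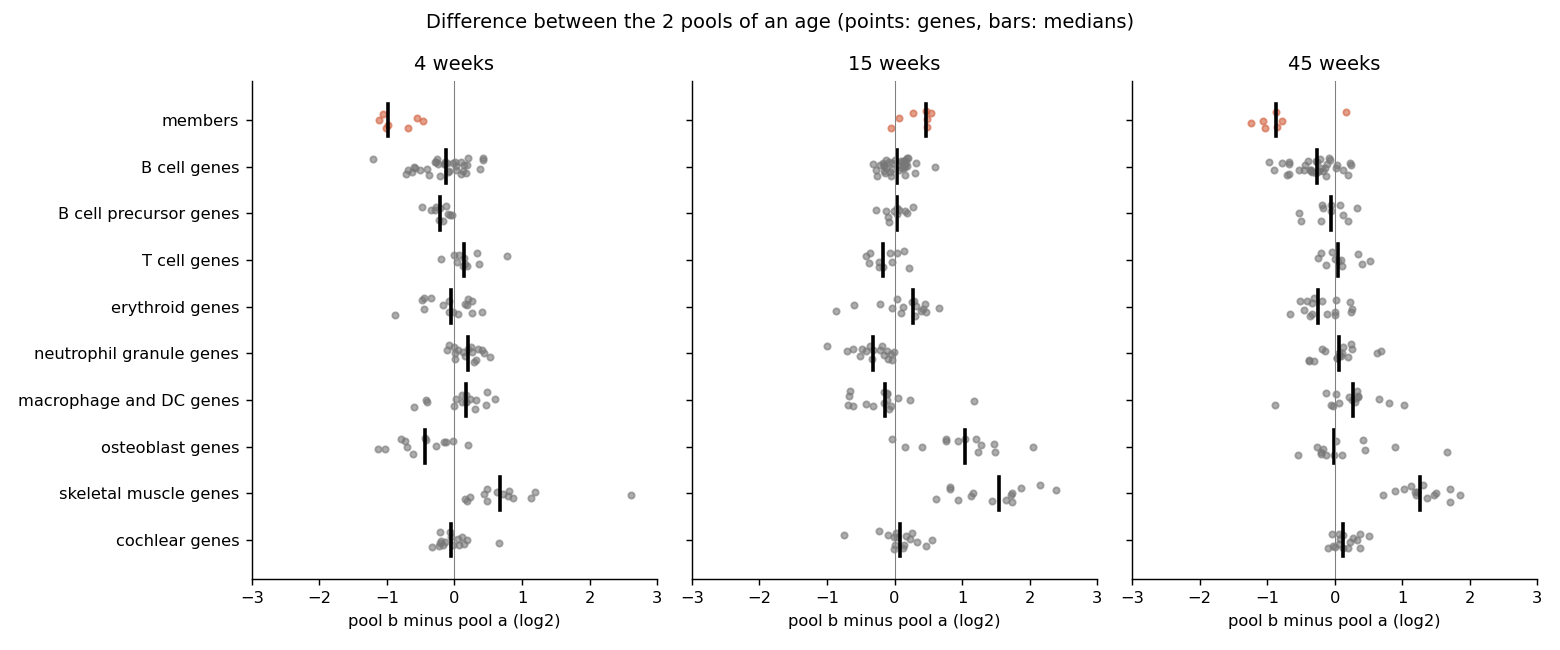
Pool b minus pool a (log2, horizontal axis) at 4, 15 and 45 weeks for the 7 tested genes of the B cell set and the tested genes of other lists, with points for genes and bars for medians. The B cell set has medians of -0.98, 0.46 and -0.86, and the neutrophil granule genes 0.21, -0.32 and 0.07.

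The genes whose pool levels were most like the mean profile of Vpreb1, Igll1 and Rag1 included further genes known from B cells. Over the 6 pools, and among the 6716 named probes tested that ranged over at least 0.5, the highest Pearson correlations were those of Ppm1e (r = 0.992), Slc25a37 (0.991), Chst3 (0.990), Gnai1 (0.989), Bcl7a (0.989), Dusp2 (0.981), Tnfrsf13c (0.980), Cpm (0.978), Pdap1 (0.977) and Spib (0.977). Within the set itself r was 0.967 for Cd79b, 0.952 for Fcrla, 0.896 for Vpreb3, 0.401 for Ebf1 and 0.315 for Pax5. These are descriptions over 6 points, of which 2 low pools set most of the range.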

How the data were processed

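Per the labels' protocols, RNA was isolated with the QIAGEN All Prep kit and biotinylated cRNA was made for the arrays. The deposited values are log2 levels, quantile normalized before deposit as judged from the values (sorted, the 12 arrays hold the same numbers). The sources used here name neither a background correction nor software. A second table, of 12 signal and 12 detection columns whose names match no label, was not used, so no statement on detection is made.

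Arrays of a pool were averaged. Probes whose mean level passed 5.87, the midpoint of the array's probes, entered 1 fit of the 3 ages in R 4.3.3 (limma 3.58.1: lmFit, contrasts.fit, eBayes; 3 residual and 3.84 prior degrees of freedom), and p-values were adjusted by Benjamini-Hochberg over the 22640 probes tested. Called means an adjusted p under 0.05, and SE is limma's moderated standard error. A gene's brightest probe stands for it unless stated. The test was also run on simulated data of independent probes, with shifts larger than the fitted age differences of these genes. The outcome is not given here, and that run says nothing of differences of their size. The labels call the pools biological replicates without saying how mice were assigned to them. The p-values weigh an age difference against the moderated spread between these pools, pooled over the ages.

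Members and lists were chosen with earlier results of these data known. Genes outside the set were named by rule: those with the smallest unadjusted p for 15 against 4 and 45 against 15 weeks (4 in each B lineage list, 2 in each other list), given where a result turns on them, and the 10 of highest correlation with the precursor profile. Vpreb2 (a copy of Vpreb1), Bst1 (named with a count), the sex-linked genes, markers named for the tissue check, and genes said to be chosen after their values were seen, fall outside it.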

Additional observations from a re-analysis of the deposited data

How the results depend on the processing

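For the 7 genes tested (no alternative was run for Pax5), 168 differences were fixed by how the setting was built, such as another filter or block. Of the 210 that could change, 176 kept their sign, 34 turned, and none passed the threshold. Leaving out both pools of high Xist was chosen after seeing the data, and leaves only pool a at 4 and at 45 weeks. It turned 45 minus 15 weeks to 0.14 for Vpreb1, 0.24 for Igll1, 0.14 for Rag1, 0.24 for Cd79b and 0.22 for Fcrla, and 15 minus 4 weeks to -0.0052 for Rag1 and -0.11 for Ebf1. The Xist level as a covariate follows the same pools and is no separate check. Xist as a covariate gave 0.16 for Igll1, 0.0755 for Cd79b and 0.0899 for Fcrla (45 minus 15), -0.0529 for Rag1 and -0.0014 for Ebf1 (15 minus 4), and -0.0383 for Vpreb1 and -0.0689 for Rag1 (45 minus 4). The first arrays alone gave -0.0869 for Rag1 (45 minus 4), and the second alone -0.11 for Vpreb3 and 0.0348 for Cd79b (45 minus 15). Leaving out 1 pool, 45 minus 15 weeks ranged from -1.09 to 0.14 for Vpreb1, -0.54 to 0.24 for Igll1, -0.91 to 0.14 for Rag1, -0.37 to 0.49 for Vpreb3, -0.61 to 0.24 for Cd79b and -0.80 to 0.22 for Fcrla, lowest without pool a and highest without pool b at 45 weeks. Likewise 45 minus 4 weeks ranged from -0.44 to 0.79 for Vpreb1 (without pool a and without pool b at 45 weeks), and from -0.0279 to 0.95 for Igll1, -0.39 to 0.67 for Rag1, -0.39 to 0.0749 for Ebf1 and -0.0391 to 1.08 for Fcrla, lowest without pool b and highest without pool a at 4 weeks. So did 15 minus 4 weeks, from -0.0052 to 1.05 for Rag1 and -0.11 to 0.35 for Ebf1. The cause was not tested.

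Over all probes, 0 were called in each comparison by limma. With the 12 arrays unaveraged and pool fitted as random block, the counts were 2 (15 against 4 weeks), 6 (45 against 15) and 183 (45 against 4). That fit set 1 correlation between arrays of a pool for all probes (0.296). Age differs only between pools, so the arrays of a pool count there in part as extra replicates. For 45 against 15 weeks the second arrays alone gave 1, a trended and robust fit 2, normexp correction 2 and the fit without the pools of high Xist 5. For 45 against 4 weeks the second arrays gave 1, the 2 ages alone 1, the trended fit 2 and normexp 1. Leaving out 1 pool gave 0 to 12 in both, the 12 without pool b at 45 weeks. The check on pairing does not settle whether the letters pair the pools. Over all probes, pool b minus pool a correlated between ages at -0.11 (4 and 15 weeks), 0.18 (4 and 45) and -0.39 (15 and 45). Such a correlation cannot show whether a part of the genes differs by letter, and muscle genes were higher in pool b at every age. The replicate block gave 0 calls in each comparison, as did the fit without it. No depth is known, and 2 pools an age limit the precision.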
